A study of Mus musculus with 35 samples.

Results

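H3K4me3 rows without an open row are regions of the authors' H3K4me3 table that share no base with any region of their ATAC-seq table. A row is one region of a table, and an open row is one region of the ATAC-seq table. On chromosomes 1 to 19, 1324 of 12183 H3K4me3 rows (10.9%, 95% Wilson interval 10.3 to 11.4%) met this rule, and the other 10859 rows shared at least 1 base with an open row. The whole table holds 12566 rows, and it was compared with 36431 open rows and 19224 rows of the H3K27me3 table.

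Mouse embryonic fibroblasts, primary connective tissue cells grown from embryos, were profiled on day 4 of chemical reprogramming. The treatments are named by their chemicals, in which C stands for CHIR99021, an inhibitor of the kinase GSK3, F for Forskolin, an activator of adenylyl cyclase, A for AM580, an agonist of a retinoic acid receptor, and E for EPZ004777, an inhibitor of the histone methyltransferase DOT1L. The 6 stands for a compound that the study names by a number, an inhibitor of a TGF-beta receptor. C6FAE holds all of them and is the cocktail of the CaMP state, 6FAE lacks C, CFAE lacks 6 and C6AE lacks F. By its letters AE holds A and E alone. Basal and Ctr are given here as labelled, since their medium is not defined for these assays in the sources used here. ATAC-seq covered 7 treatments with 2 libraries each, and ChIP-seq covered H3K4me3 and H3K27me3 with 1 library of each mark per treatment. The labels give no strain or genotype for the cells. For 3 ChIP-seq samples the title reads Ctr and the treatment field reads C6FAE, so they entered no group and their values stand apart.

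H3K4me3 is a histone mark found at the promoters of active genes and at promoters held ready for use. H3K27me3 is laid down by Polycomb repressive complex 2 and marks silent genes, and promoters of developmental genes can carry both marks, a state called bivalent. ATAC-seq measures where a transposase can enter the chromatin, and active promoters are usually open. The profiles came from bulk cultures, so the marks on the same chromosome copy and the marks in different cells of the culture cannot be told apart.

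Depth differed between libraries, and 2 of them were thin. The H3K4me3 library of C6AE held 745089 tags, against 3296306 to 7103488 in the other 5 labelled H3K4me3 libraries. The H3K27me3 library of 6FAE held 633980 tags, against 2876197 to 6392309 in the other 5. The ATAC-seq libraries held 3346418 to 8764791 tags. With 1 ChIP-seq library per treatment, no pair of treatments could be tested at a single row, and the p-values given compare values summarised over rows across libraries.

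The rows without an open row were short. Their median length was 1907.5 bp (95% interval over rows 1830 to 2013 bp), and that of the rows with an open row was 4002 bp (3962 to 4041 bp). The middle 50% of them lay between 1250 and 3130 bp, and the shortest and longest had 260 and 8771 bp. Only 77 of the 1324 (5.82%) reached 5000 bp, against 3078 of 10859 (28.3%). A longer row has more chance to touch an open row, so length is tied to the rule and is given as a description. Among all H3K4me3 rows of up to 1250 bp, 39.0% had no open row, and among those of 3131 bp and more, 4.21% had none. 

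**Figure D1:**
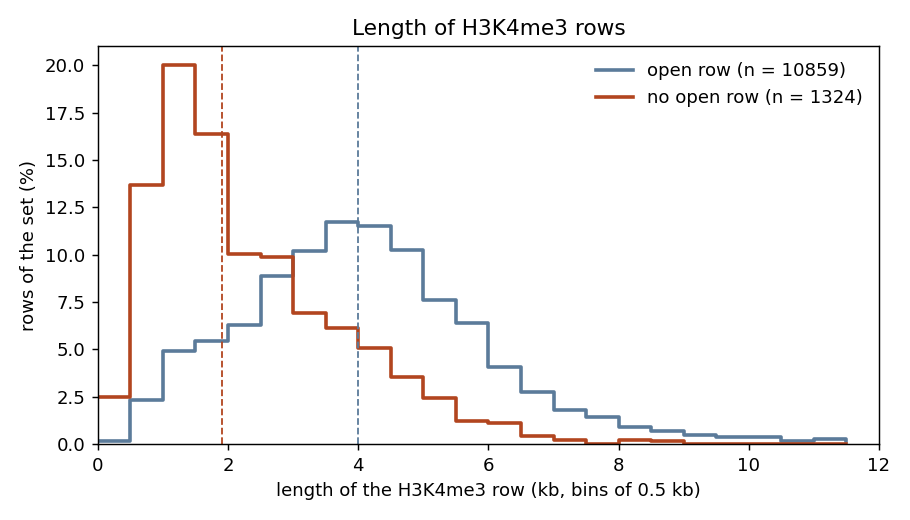
Length of H3K4me3 rows in kb, in bins of 0.5 kb, as the percentage of the 1324 rows without an open row and of the 10859 rows with one. Dashed lines mark the medians, 1907.5 and 4002 bp, and the rows without an open row crowd toward the short end. Rows over 12 kb are not drawn.

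Most of these rows lay well away from open chromatin as the authors list it. The distance to the nearest open row had a median of 16250.5 bp (14784 to 18369 bp) and was 17 bp at the least. An open row stood within 1000 bp of 61 rows (4.61%) and within 10000 bp of 472 (35.6%). The rows were spread over all 19 chromosomes, from 8.13% of the H3K4me3 rows of chromosome 14 to 13.6% of those of chromosome 13. Another H3K4me3 row lay within 10000 bp of 14.9% of them (95% Wilson interval 13.1 to 16.9%) and of 18.2% of the rows with an open row (17.5 to 18.9%).

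The rows nearest to the edge of the rule, 3 on each side, had overlapping ranges of mean H3K4me3 RPKM. No count was made over more rows near the edge. The row nearest to an open row without touching it was chr15:75828358-75829617 (mm9), 17 bp away. Its H3K4me3 had a mean of 9.65 RPKM and ran from 3.76 in 6FAE to 28.0 in C6AE. The next were chr7:29236352-29238008, 74 bp away, and chr7:70902131-70904483, 80 bp away, with means of 19.2 and 10.7 RPKM over the 6 labelled columns. Just across the edge, chr5:139800354-139801661 shared 1 base with an open row and had a mean of 11.1 RPKM. Next to it, chr9:45739944-45744540 shared 18 bases and chr3:89240595-89241653 shared 60, with means of 10.7 and 16.3 RPKM.

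H3K4me3 was present at these rows in every treatment, at a lower level than at rows with an open row in 5 of 6 libraries. RPKM, read density per kilobase corrected for library size and averaged over the bins of a row, had a median over the 1324 rows of 7.98 in 6FAE, 9.05 in C6FAE, 11.7 in CFAE, 13.7 in Basal, 15.1 in AE and 25.3 in C6AE. In the same order, the rows with an open row had medians of 11.6, 11.8, 16.2, 18.4, 19.3 and 24.8. C6AE was the exception, and it is the thin library. The spread over rows was wide, so that in Basal 14.95% of the rows without an open row exceeded the median of the others, and in C6AE 52.3% did.

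On the log2(RPKM + 1) scale, the medians of the rows without an open row were lower by 0.33 ± 0.18 (mean of the differences ± SD, n = 6 libraries). The 6 differences ran from -0.48 in 6FAE to 0.03 in C6AE, and an exact two-sided sign-flip permutation test gave p = 0.0625 (adjusted p = 0.083 over the 4 tests made, Benjamini-Hochberg), where 6 libraries cannot go below p = 0.03125. Among rows between the length quartiles of the rows without an open row, the mean difference was -0.19, and the exact permutation p was also 0.0625. Nothing in the labels says whether the libraries came from separate cultures, so the p-values measure only the spread between these libraries, which may be technical.

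**Figure D2:**
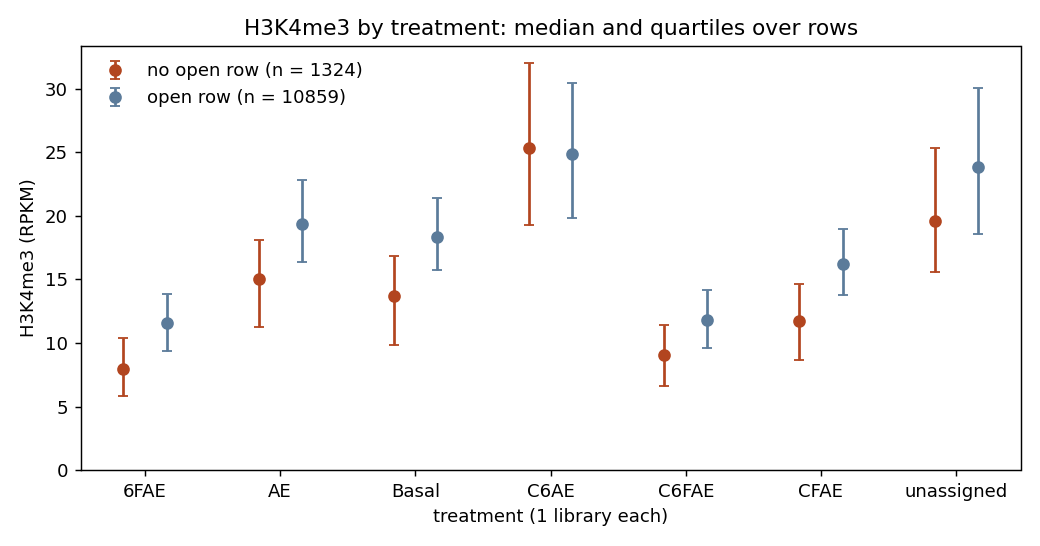
H3K4me3 RPKM by treatment, as the median (points) and quartiles (bars) over rows, with 1 library per column and the library of unknown condition at the right. The rows without an open row sit lower in every column except C6AE, where the medians are 25.3 and 24.8 RPKM.

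The peak lists of the single H3K4me3 libraries held nearly all of these rows. The columns of the H3K4me3 table come from the same libraries, so these lists are not a separate check of the rows. Counting peaks with a -log10 q of 1.3 or more, the share of the 1324 rows that shared a base with a peak was 90.9% in C6FAE, 93.2% in 6FAE, 97.5% in C6AE, 98.3% in CFAE, 98.6% in Basal and 99.1% in AE. The share was lower than among rows with an open row in 6 of 6 libraries, by 3.34 ± 2.91 percentage points (mean ± SD, n = 6; exact sign-flip permutation test p = 0.03125, the smallest possible, and adjusted p = 0.0625). A longer row has more chance to touch a peak. Among rows between the length quartiles of the rows without an open row, the mean difference was -1.23 points. In 1131 rows (85.4%) a peak was listed in all 6 libraries, against 98.1% of the rows with an open row. A stricter score spread the libraries further apart. With a -log10 q of 5 or more the shares were 54.8% in 6FAE, 60.3% in C6FAE, 75.8% in C6AE, 84.0% in CFAE, 90.5% in AE and 90.9% in Basal, while 90.9 to 99.5% of the rows with an open row had such a peak. The q column rests on lists whose headers say that q was not calculated.

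H3K27me3 overlapped these rows more often than the rows with an open row. Of the 1324 rows, 670 (50.6%, Wilson interval 47.9 to 53.3%) shared a base with a row of the H3K27me3 table, against 1521 of 10859 rows with an open row (14.01%, 13.4 to 14.7%). The H3K27me3 row covered the whole H3K4me3 row in 519 of them (39.2% of the 1324), against 681 (6.27%). The H3K27me3 rows involved were long, with a median of 12508.5 bp beside rows without an open row and of 8373 bp beside the others. These intervals cover the number of rows only, and rows are not replicates.

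The difference was present at each length. From 260 to 1250 bp, the range up to the lower length quartile of the rows without an open row, 49.1% shared a base with an H3K27me3 row, against 30.1% of the other rows of that length. From 1251 to 1907 bp the shares were 59.4 and 33.9%, from 1908 to 3130 bp they were 56.8 and 18.6%, and from 3131 bp on they were 37.2 and 9.62%.

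The H3K27me3 libraries taken singly gave the same direction. The columns of the H3K27me3 table come from these libraries, so their lists are not a separate check of the overlap above. Taking the top 20000 peaks of each list, ranked by -log10 p, the share of the 1324 rows that shared a base with a peak was 22.2% in 6FAE, 27.1% in CFAE, 32.4% in C6FAE, 43.3% in C6AE, 45.0% in Basal and 50.5% in AE. Among rows with an open row it was 6.07, 6.28, 7.36, 9.48, 11.005 and 14.1%. The difference was 27.7 ± 8.27 percentage points (mean ± SD, n = 6) and above 0 in 6 of 6 libraries, with p = 0.03125 by the exact sign-flip permutation test, the smallest possible, and an adjusted p of 0.0625. In 154 rows (11.6%) such a peak was listed in all 6 libraries, against 224 of the rows with an open row (2.06%), and 523 (39.5%) had one in none.

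At this cutoff the lowest shares were in the 3 treatments with Forskolin, and they did not overlap those of the other 3. With every listed peak the groups did overlap, at 64.05% in CFAE, 69.0% in 6FAE and 81.0% in C6FAE, against 61.3% in Basal, 63.1% in C6AE and 71.8% in AE. With a -log10 q of 1.3 or more there were 3, 7 and 7 of the 1324 rows in 6FAE, C6FAE and CFAE (0.227, 0.529 and 0.529%), and 443, 474 and 564 rows in Basal, AE and C6AE (33.5, 35.8 and 42.6%). Among rows with an open row the shares were 0.138, 0.239 and 0.203% and 7.16, 8.26 and 9.16% in the same order. The whole lists hold 74, 82 and 136 such peaks in the treatments with Forskolin and 6100, 4115 and 17766 in Basal, AE and C6AE, so the gap was not limited to these rows. The 6FAE list comes from the thin library, while C6FAE held 5919506 tags and CFAE 3294779. The part of depth in the gap was not tested. Over the 670 rows with an H3K27me3 row, the median H3K27me3 RPKM was 5.36, 3.54 and 4.00 in 6FAE, C6FAE and CFAE, and 7.75, 7.07 and 6.29 in Basal, AE and C6AE.

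**Figure D3:**
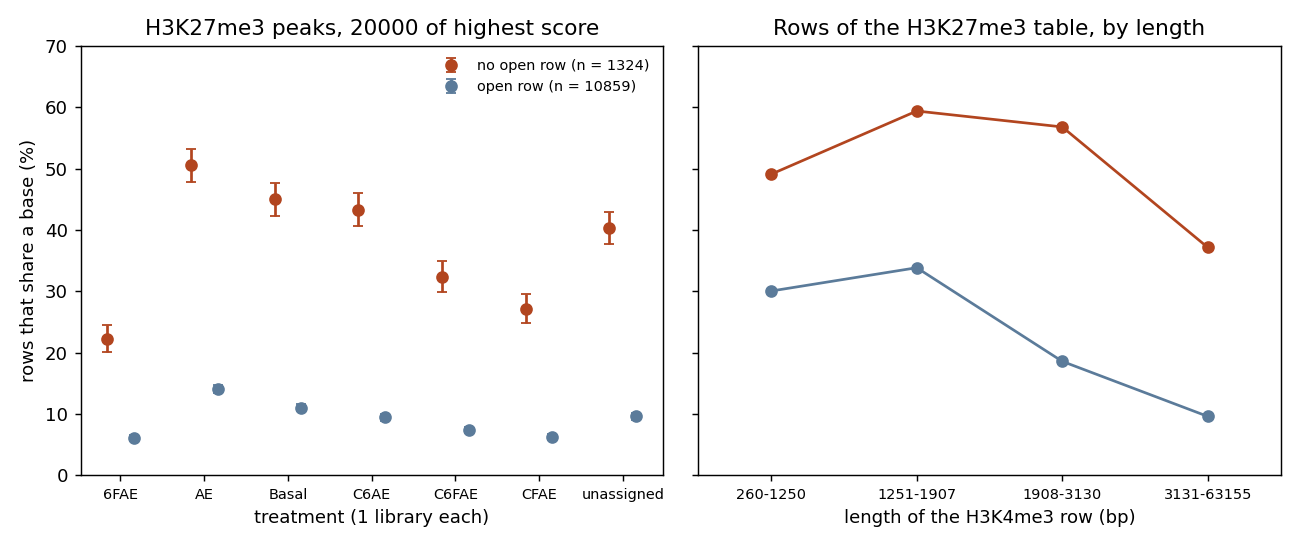
Share of rows that share a base with H3K27me3, in percent. At left, the top 20000 peaks of each list (bars are 95% Wilson intervals over rows), where the rows without an open row lie at 22.2 to 50.5% and the others at 6.07 to 14.1% in the labelled libraries. At right, rows of the H3K27me3 table by length of the H3K4me3 row.

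ATAC-seq peaks of any score were listed at most of these rows, and peaks of the highest 20000 at few. The authors' open rows were made from the same libraries, so the peak lists are not independent of the rule and are described without a test. The top 20000 peaks reached down to a -log10 p of 2.49 to 3.21, depending on the list. Only 810 to 15909 peaks per list had a -log10 q of at least 1.3, so the top 20000 include peaks below that score. Taking the top 20000 peaks of each of the 14 lists, 3.10 to 8.31% of the 1324 rows shared a base with a peak, against 44.7 to 81.4% of the rows with an open row. With every listed peak, called at p of 0.05 without local background, the ranges were 64.9 to 94.6% and 94.1 to 99.9%. In Basal the shares with every listed peak were 64.9 and 78.9%, in Ctr 72.7 and 81.4%, and in C6FAE 91.7 and 91.2%. They were 87.2 and 88.7% in AE, 85.5 and 92.3% in 6FAE, 94.6 and 80.7% in CFAE, and 90.9 and 65.3% in C6AE. The 2 libraries of a treatment could thus lie as far apart as treatments did. Among rows with an open row the shares were 96.7 and 98.8% in Basal and 99.9 and 99.8% in C6FAE. The number of listed peaks also differed, with 212524 and 248329 in Basal, 309475 and 456793 in Ctr, and 266306 and 477218 in C6FAE. It was 378580 and 495425 in AE, 471688 and 336743 in 6FAE, 516461 and 191181 in CFAE, and 523278 and 261091 in C6AE.

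Most of these rows with a peak of the highest 20000 had one in 1 library alone. Over the 14 libraries, 647 rows (48.9%) had a peak of the highest 20000 in at least 1 library, but 403 of them (30.4% of the 1324) had it in 1 library alone. Of the rows with an open row, 99.3% had one in at least 1 library and 3.45% in 1 alone. Both libraries of a treatment had such a peak in 8 rows of 6FAE (0.604%) up to 15 rows of C6AE and of CFAE (1.13%), against 34.7% of the rows with an open row in C6AE and 62.3% in CFAE. At a -log10 q of at least 1.3, 1230 rows (92.9%) had no ATAC-seq peak in any library, against 11.1% of the rows with an open row. With every listed peak, 361 rows (27.3%) had one in all 14 libraries and 5 had one in none, against 9498 (87.5%) and 0 of the rows with an open row. The 670 rows with an H3K27me3 row had a peak of the highest 20000 in a median of 4.18% of rows per library, and the 654 without one in 7.34%.

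**Figure D4:**
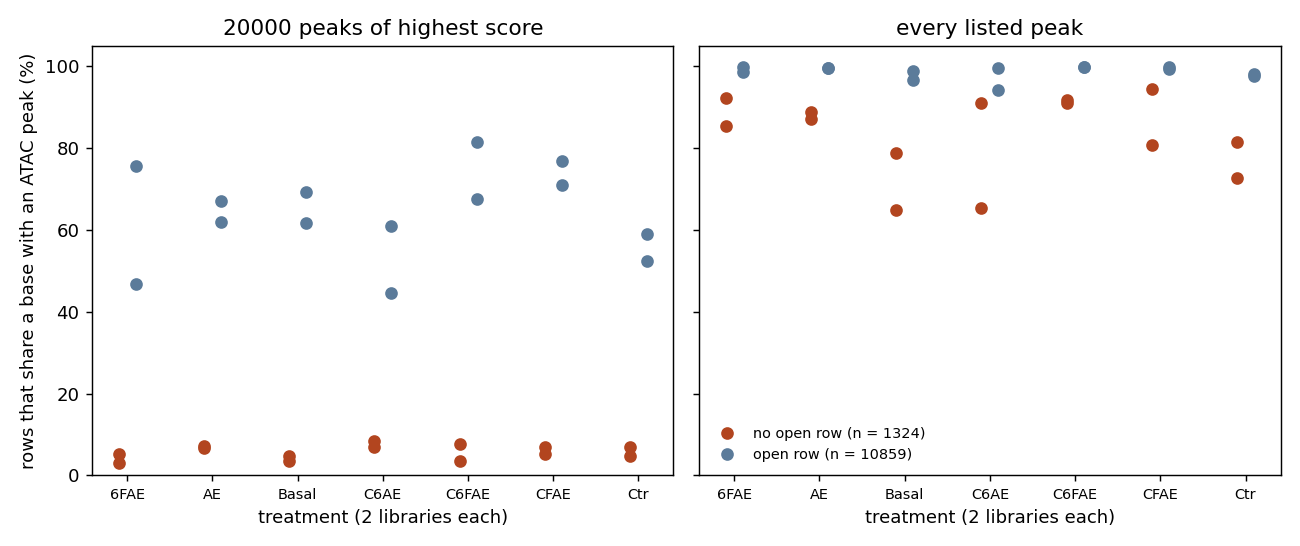
Share of H3K4me3 rows that share a base with an ATAC-seq peak, in percent, with 1 point per library and 2 libraries per treatment. With the 20000 peaks of highest score (left) the rows without an open row stay at or below 8.31%, and with every listed peak (right) they reach 64.9 to 94.6%.

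Between treatments, the RPKM of the rows without an open row moved most in C6AE. Differences are of log2(RPKM + 1) against the Basal column, a row was counted at 2-fold or more, and all 5 comparisons share that column. In C6AE, 548 of the 1324 rows (41.4%) were at least 2-fold higher than in Basal, where 12.9% of all 12183 rows were, and 23 rows were lower (all rows 0.78%). The median difference was 0.81 over the rows without an open row and 0.38 over the others. In C6FAE, 32 rows were higher (2.42%; all rows 0.501%) and 251 lower (18.96%; all rows 13.2%). In 6FAE, 4 rows were higher (0.302%; all rows 0.0739%) and 250 lower (18.9%; all rows 11.9%). In CFAE, 26 rows were higher (1.96%; all rows 0.665%) and 72 lower (5.44%; all rows 1.76%). In AE, 28 rows were higher (2.11%; all rows 0.312%) and 3 lower (0.227%; all rows 0.0739%). With columns centred on their median over all rows, 323 rows were higher in C6AE (all rows 5.88%). In 6FAE, 31 were then higher and 31 lower (all rows 0.558 and 0.985%), and in C6FAE 126 were higher and 68 lower (all rows 2.36 and 2.07%). Each column is 1 library, so these are counts by size with no test, and the C6AE counts rest on the thin library. The fold enrichment over background of the strongest listed H3K4me3 peak at a row was lower in C6AE than in Basal. Its median was 6.38 in C6AE and 10.99 in Basal over the rows without an open row, and 9.11 and 20.9 over the others. The fall was thus smaller over the rows without an open row. The 2 lists come from 745089 tags in C6AE and 7103488 in Basal. The part of depth in these fold enrichments was not tested.

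The rows with an H3K27me3 row made up most of the rows with a higher RPKM in C6AE. Of the 548 rows 2-fold higher in C6AE, 444 (81.0%) shared a base with an H3K27me3 row. That is 66.3% of the 670 rows with an H3K27me3 row, against 104 (15.9%) of the 654 rows without one, and their median differences were 1.32 and 0.41. Among rows with an open row, 657 of 1521 with an H3K27me3 row (43.2%) and 366 of 9338 without one (3.92%) were 2-fold higher. Their median differences were 0.87 and 0.34, so the order was not particular to the rows without an open row. In Basal the 670 rows had a median of 10.8 RPKM and the 654 rows 15.97 RPKM, whereas in C6AE the medians were 28.1 and 22.4 RPKM. C6FAE showed a smaller gap, with median differences from Basal of -0.26 for the 670 rows and -0.73 for the 654, and medians of 8.99 and 9.12 RPKM. The other medians against Basal were 0.27 and 0.04 in AE, 0.02 and -0.33 in CFAE, and -0.58 and -0.69 in 6FAE. Whether these differences exceed the error between libraries cannot be told from 1 library per treatment.

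**Figure D5:**
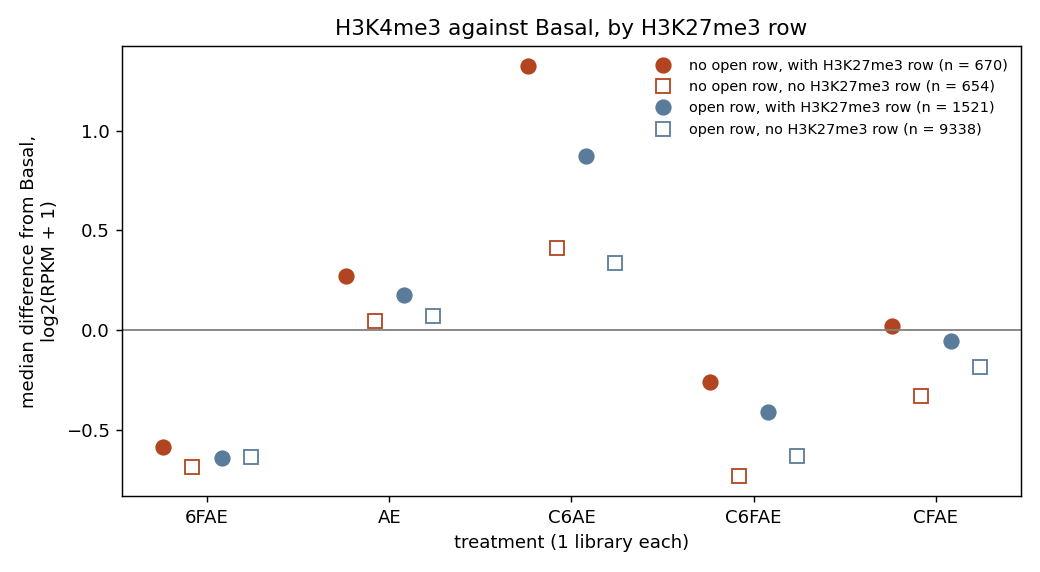
Median difference of H3K4me3 from the Basal column, in log2(RPKM + 1), for H3K4me3 rows with and without an open row, each split by an H3K27me3 row. Filled circles are rows with an H3K27me3 row and open squares rows without one. In C6AE the 670 rows with an H3K27me3 row and no open row stand highest, at 1.32, and the 654 rows with neither stand at 0.41.

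Treatments with Forskolin had lower H3K4me3 RPKM at these rows. The 3 columns with it (6FAE, C6FAE and CFAE) had medians of 7.98 to 11.7 RPKM, and the 3 lacking it (AE, Basal and C6AE) 13.7 to 25.3 RPKM, with no overlap. The median difference was -0.77 over the rows without an open row and -0.63 over the others, and the exact two-sided permutation test on the column medians gave p = 0.1, the smallest that 3 against 3 allow (adjusted p = 0.1). In 685 rows (51.7%) all 3 columns with Forskolin were below all 3 without it, where 65.3% of all rows were, and in 0 rows they were above (all rows 0.00821%). Most of the shift was shared by all rows. After centring the columns on their medians, 135 rows (10.2%; all rows 7.58%) were lower and 23 (1.74%; all rows 7.28%) were higher, and the median difference was -0.13.

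The same count was made for the other chemicals after the data were seen. With CHIR99021 (C6AE, C6FAE and CFAE), 83 rows (6.27%; all rows 2.09%) were above the columns without it and 16 (1.21%; all rows 0.78%) below. Centred, these were 235 (17.7%; all rows 8.8%) and 101 (7.63%; all rows 9.28%). With compound 6 (6FAE, C6AE and C6FAE), 3 rows (0.227%; all rows 0.0328%) were above and 41 (3.10%; all rows 5.25%) below. Centred, these were 113 (8.53%; all rows 4.88%) and 55 (4.15%; all rows 8.09%). AE and Basal stand on the side without the chemical in each split, so the splits are not separate experiments.

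Single rows showed how far the set ranged. The highest row was chr12:3109769-3110228, 460 bp long, at 2397 RPKM in Basal, 2332 in 6FAE, 2299 in C6FAE, 1816 in AE, 1560 in C6AE and 1519 in CFAE. It was the only one of the 1324 with a mean over 100 RPKM, it had an ATAC-seq peak of the highest 20000 in all 14 libraries, and its H3K27me3 row read 436 to 1502 RPKM. All assays were high there, in every library. The next highest, chr19:61275319-61276627, had a mean of 29.8 RPKM, a value near the rest of the set.

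Among the rows with an H3K27me3 row, chr15:39027515-39031510 read 11.3 RPKM of H3K4me3 in 6FAE, 16.7 in Basal, 24.7 in AE, 27.4 in C6FAE, 28.0 in CFAE and 63.1 in C6AE. The columns with CHIR99021 were above the others. At chr7:114513232-114515461 the C6AE column stood alone, with 60.2 RPKM against 12.0 to 19.1 in the other columns. At chr6:113688011-113691829 the range was narrow, from 13.3 in C6FAE to 32.2 in C6AE. Only 45 of the 3819 bases of this row were shared with an H3K27me3 row.

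The longest row, chr11:96142302-96151072 (8771 bp), lay wholly inside an H3K27me3 row of 68301 bp and had a mean of 14.9 RPKM of H3K4me3. It had a listed ATAC-seq peak in all 14 libraries and one of the highest 20000 in none. At chr5:120279710-120287732 (8023 bp), inside an H3K27me3 row of 60918 bp, the mean was 9.04 RPKM. The long row chr2:125859603-125867875 (8273 bp) had no H3K27me3 row within 310147 bp. It read 17.6, 16.9 and 21.3 RPKM in 6FAE, AE and Basal, and 4.22, 2.50 and 3.41 in C6AE, C6FAE and CFAE, so the columns with CHIR99021 were all below those without. Its nearest open row was 488 bp away. The other long rows, chr13:63339894-63348558 and chr7:26568729-26576908, had means of 16.7 and 11.5 RPKM and no H3K27me3 row.

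Rows at or above the median level of the set were named where all 3 columns with Forskolin lay on the same side of all 3 without it. In 375 rows they lay below and in 0 rows above. Without the limit on level, 51.7% of the rows without an open row and 65.3% of all rows lay below. Rows above made up 0.00821% of all rows, so this direction was not particular to the set. The share of all rows under the same limit was not counted. The 3 rows with the largest difference among the 375 follow. At chr4:129117710-129118146 the columns with Forskolin read 2.81 to 5.81 RPKM and the others 9.34 to 47.4, a difference of -1.82. At chr10:127009882-127016026 they read 7.69 to 20.7 and 31.3 to 53.9 RPKM, a difference of -1.70, and at chr5:115107806-115108840 they read 5.23 to 11.7 and 18.1 to 42.6 RPKM, a difference of -1.45. All 3 rows lay wholly inside an H3K27me3 row, and none had an ATAC-seq peak of the highest 20000. In each of them the highest column was C6AE, from the thin library.

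The 5 rows with no ATAC-seq peak of any score were short, from 323 to 1169 bp, and none had an H3K27me3 row. The strongest, chr5:3892439-3893607, read 11.1 to 20.3 RPKM and had an H3K4me3 peak at a -log10 q of at least 5 in all 6 libraries. At chr7:48854931-48855702 the columns read 10.5 to 23.5 RPKM, and at chr13:67273873-67274458 they read 5.38 to 14.6. At chr2:151320188-151320510 C6AE read 46.9 RPKM and the others 3.53 to 15.8, with a peak of that score in 0 libraries. Genes at these positions are not named, since no mm9 annotation was used here.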

How the data were processed

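ATAC-seq and ChIP-seq libraries of mouse embryonic fibroblasts were compared through tables and peak lists made by the authors. Per the labels, the genome build is mm9. Bowtie2, MACS2 and deepTools 3.1.0 are named in the submitters' processing notes. The authors deposited RPKM averaged over bins of each region. ATAC-seq columns are merged over libraries, and each ChIP-seq column is 1 library. The deposited peak lists, made with MACS 2.1.2 at p of 0.05, give -log10 p and -log10 q, the fold enrichment over background, and a pileup signal. The total tags per library come from their headers, and intervals cover counting error only.

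Here, regions shared a base when they overlapped by at least 1 bp. Peaks were taken at a -log10 q of at least 1.3 or as the 20000 of highest -log10 p. RPKM was taken as log2(RPKM + 1). Exact permutation tests were made over libraries, with Benjamini-Hochberg adjustment over 4 tests. Shares have Wilson intervals. The overlap and test code was tested on simulated data. The regions and lists were chosen with earlier results of these data known. Named regions are the 5 highest, the 5 longest, the 5 highest with an H3K27me3 row, the 5 with no ATAC-seq peak, the 3 largest differences with Forskolin among regions at or above the median level whose 3 columns with it lay on the same side of the 3 without it, and the 3 nearest each side of the rule. The CHIR99021 and compound 6 counts were added after seeing the data. Alternatives changed the pseudocount, overlap, length, score, scaling and libraries. Input libraries were not analysed here. The scripts ran in Python 3.11.15 with pandas 2.3.3, numpy 2.4.6, matplotlib 3.10.9 and scipy 1.17.1.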

Additional observations from a re-analysis of the deposited data

Results flagged for a closer look

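The H3K4me3 level of the rows without an open row was below that of the rows with one in 5 treatments and above it in C6AE, by 0.028 on the log2(RPKM + 1) scale. The difference between C6AE and the other treatments was not tested, since each is 1 library, and the C6AE library held 745089 tags.

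Rows without an open row that had an H3K27me3 row stood above those that had none in C6AE, by 0.32 on the same scale, and below them in the other 5 treatments, by -0.53 in Basal to -0.02 in C6FAE. This difference was not tested either. Rows with an open row showed it too, at 0.18 in C6AE and -0.41 to -0.12 in the others.

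The H3K4me3 library of unknown condition, which no comparison used, read far above every labelled library at a small share of rows. Its median over the 1324 rows was 19.6 RPKM, below the 25.3 RPKM of C6AE. At chr10:79822794-79823660 it read 100.1 RPKM, 10.1 times the highest labelled column, and the labelled columns ran from 2.16 to 9.87 RPKM. Of the 1324 rows, 29 (2.19%) were over 2 times the highest labelled column there, against 25 of the 10859 rows with an open row.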

How the results depend on the processing

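Of 102 values recomputed under other settings, 45 kept their direction and their side of the threshold or stayed close to the reported value. Another 43 moved further, 13 lost and 1 gained a p under the threshold, and 0 reversed. The counts, the share of rows, the row length and the H3K27me3 row overlap were judged by size alone. For these a reversal could not be recorded. When a row counted as having no open row with under 50% of its length covered, the share rose to 29.8%, the median length to 3616 bp, and the overlap with H3K27me3 rows fell to 28.4% (13.6% among the others), and the H3K4me3 difference was -0.12 with an exact permutation p = 0.03125. With chromosome X the share was 11.5%. The H3K27me3 overlap was 43.7% when 50% of the row had to be covered (8.46% among the others). Between the length quartiles it was 58.3% (22.8% among the others). With 50% of the row covered, the difference in H3K4me3 peaks was -3.29 points with an exact permutation p = 0.375. The difference in ATAC-seq peaks was -58.2 points in the reported setting, -35.6 at a -log10 q of at least 1.3, -15.4 with every listed peak and -18.7 with 50% of the row covered.

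Leaving out 1 library gave an H3K4me3 difference of -0.40 to -0.30, a difference in H3K4me3 peaks of -3.83 to -2.43 points and in H3K27me3 peaks of 26.0 to 30.0 points. With 5 libraries an exact permutation p cannot go below 0.0625, so these could not pass. The difference with Forskolin ran from -0.94 to -0.52, the latter without C6AE, where the other rows gave -0.51. Without a replicate of each treatment the ATAC-seq difference was -58.4 to -58.1. Without the C6AE library, a setting added after seeing the data, 722 rows were below with Forskolin (all rows 69.3%) and 83 above with CHIR99021 (all rows 2.101%). Centred on column medians, also added then, these were 135 and 235 (all rows 7.58 and 8.8%).

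The counts against Basal depended on the settings in 32 of 40 cases. With a pseudocount of 0.1, 10 rows were higher in 6FAE, 41 higher in CFAE and 7 lower in AE (all rows 0.131, 0.886 and 0.123%). With a pseudocount of 10, higher and lower rows were 1 and 4 in 6FAE (all rows 0.00821 and 0.295%) and 0 and 0 in AE (all rows 0 and 0%). They were 319 and 3 in C6AE (all rows 6.00 and 0.0821%) and 0 and 26 in C6FAE (all rows 0.0246 and 0.804%). In CFAE they were 1 and 3 (all rows 0.0575 and 0.0903%). Centred, they were 31 and 31 in 6FAE (all rows 0.558 and 0.985%) and 323 and 56 in C6AE (all rows 5.88 and 2.58%). They were 126 and 68 in C6FAE (all rows 2.36 and 2.07%) and 52 and 37 in CFAE (all rows 1.17 and 0.977%). In AE 16 were higher (all rows 0.189%). Among rows over the lower quartile of mean RPKM, they were 0 and 84 in 6FAE (all rows kept 0 and 8.69%). In AE they were 3 and 0 (all rows kept 0.0766 and 0.0219%), and in C6AE 221 and 2 (10.1 and 0.0876%). In C6FAE they were 5 and 72 (0.142 and 8.57%), and in CFAE 4 and 6 (0.285 and 0.372%). How many rows without an open row passed this limit was not counted. The cause of the dependence on settings was not tested. No paired analysis was possible because each ChIP-seq treatment has 1 library and no test compares the ATAC-seq groups that share replicate numbers.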

Other observations

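The ChIP-seq libraries of unknown condition gave values of the same kind at the rows without an open row. Their median H3K4me3 was 19.6 RPKM, against 23.8 RPKM at rows with an open row. A peak at a -log10 q of at least 5 was listed at 96.7% of them in the H3K4me3 list. In the H3K27me3 list, 40.3% of them shared a base with a peak of the highest 20000, against 9.63% of the rows with an open row, and 12.3% with one at a -log10 q of at least 1.3. At chr10:127009882-127016026, the row with one of the largest differences with Forskolin, the H3K4me3 column read 303.7 RPKM.

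No H3K4me3 row on chromosomes 1 to 19 had another within 1000 bp, and the smallest gap was 1005 bp.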
